A study of Rattus norvegicus with 24 samples.

Results

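The genes described here are 8 carbonic anhydrases of rat liver, Car12, Car1, Car2, Car3, Car4, Car5a, Car8 and Car14, of 16856 genes that an array probe set named alone. They were matched by symbol, and the set was chosen by the signal of Car12, which differed with the animals' own diet in these same arrays. Own-diet values of the 8 genes are therefore given as a description, without a test, while differences by the grandfather's diet were tested. Liver RNA came from 24 adult female Sprague-Dawley rats of the second filial (F2) generation, whose F0 grandfathers had been fed chow or a high-fat diet (HFD). The females ate chow or an HFD with 42/45% of energy from fat, as the labels write it, for 12 weeks. GpatCD-CD were 7 females of the chow-fed grandfather line on chow, GpatCD-HF were 6 females of that line on HFD, GpatHF-CD were 6 females of the HFD-fed grandfather line on chow and GpatHF-HF were 5 females of that line on HFD. All shared strain and sex, and the labels name no further allele or agent. Litters and individual grandfathers are not named in the labels, so the p-values measure the spread between arrays, and shared ancestry was not modelled.

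Carbonic anhydrases catalyse the reversible hydration of carbon dioxide to bicarbonate and a proton. The family is divided by place: some members face the outside of the cell from the plasma membrane, some are cytosolic, some are mitochondrial, and a few have lost catalytic activity. In hepatocytes the bicarbonate they supply feeds pyruvate carboxylase and the first step of the urea cycle, and the membrane forms take part in acid-base handling at the cell surface. Car12 is a single-pass membrane enzyme with its catalytic domain outside the cell, best known from estrogen-responsive epithelia, kidney and hypoxic tumours.

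The promoter of Car12 is shown because the gene had the widest diet difference of the 8. That of Idi1, an enzyme of the mevalonate pathway, is shown because its Pearson correlation with Car12 over all 24 arrays was among the highest. Both genes were lower on HFD, which adds to that correlation. Within the 13 chow arrays the correlation was -0.02. RefSeq promoter windows of 300 bases (250 before and 50 after the start of the window entry, build GRCr8) were matched by symbol for 4 of the 8 members, Car12, Car4, Car5a and Car14. That start need not be the first base of the gene. The Car12 gene begins at 76169723, inside its window, and the Car4 gene at 70325102, before its window at 70325108. Car12 lies at chr8:76169565-76169864 on the + strand, with ACGTG, the core bound by hypoxia-inducible factors, in capitals. Idi1 lies at chr17:66547475-66547774 on the - strand, with CCAAT, the NF-Y box, in capitals on either strand.
Car12: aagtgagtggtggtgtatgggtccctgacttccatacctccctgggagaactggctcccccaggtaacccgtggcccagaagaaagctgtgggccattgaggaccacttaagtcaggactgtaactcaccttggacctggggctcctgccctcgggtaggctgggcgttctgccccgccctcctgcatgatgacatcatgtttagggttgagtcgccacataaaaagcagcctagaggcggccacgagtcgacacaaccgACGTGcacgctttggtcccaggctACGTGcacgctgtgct
Idi1: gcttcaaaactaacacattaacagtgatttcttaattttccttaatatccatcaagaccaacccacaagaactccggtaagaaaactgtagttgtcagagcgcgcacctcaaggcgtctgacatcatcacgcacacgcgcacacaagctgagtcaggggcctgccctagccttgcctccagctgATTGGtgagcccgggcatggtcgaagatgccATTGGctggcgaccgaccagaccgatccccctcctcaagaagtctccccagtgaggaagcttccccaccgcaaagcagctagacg
ACGTG or its reverse complement was found at positions 11 and 35 after the start of the Car12 window entry. It was also found in the Car4 and Car14 windows, so in 3 of 4 members with a window, and in 19.3% of all 33469 windows. CCAAT was found in 0 of the 4 members' windows and in 37.5% of all windows. The sterol regulatory element letters TCACNCCAC, searched on both strands, were in 0 of 4 and in 1.12% of all. The full palindromic estrogen response element, searched on both strands, was in 0 of 4 and in 9 windows of all. In the 10 windows of cholesterol synthesis genes CCAAT was present in 8 and ACGTG in 2. The sterol regulatory element letters and the full estrogen response element were in 0 of those 10. The absence of the sterol letters therefore does not set the members apart from the cholesterol synthesis genes. Such matches are letters in a window and do not show binding.

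Signals are given as log2(intensity + 16) of the deposited intensities, and a difference between 2 groups is a difference on that scale with its standard error (SE). One probe set represented each gene except Car4, which had a second, dim one. Hepatocyte markers stood among the brightest probe sets, with Alb, the plasma protein albumin, at intensities of 9770 to 13114. The adipose hormone genes Adipoq and Lep stayed at 36.7 to 82.3 and 29.3 to 54.3. Of the other adipocyte markers, Cidec was brighter than 91.5% of probe sets, Lipe than 60.1% and Cfd than 50.8%. The rest were brighter than at most 38.5%. These levels bear on the tissue, since the growth protocol speaks of white adipose tissue while every title and tissue label says liver. Arrays 21 and 25 (GpatCD-CD), 22 (GpatCD-HF) and 24 (GpatHF-HF) stood apart from the other 20 on the second principal component, which held 13.8% of the variance. Their scores were 22.1 to 25.1 against at most 5.85 in the others. In these 4 arrays Car4, Car5a and Car8 each lay below their own group's mean, and Car12 lay above it. The median over all 15687 probe sets tested was -0.10 for the grandfather's diet on HFD as deposited and -0.00148 after quantile normalization.

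Car12 was lower in the livers of females on HFD than in those on chow, in both lines. In GpatCD-CD the lowest, median and highest signals were 8.95, 9.23 and 10.15, and in GpatHF-CD they were 8.53, 8.68 and 9.80. In GpatCD-HF the lowest, median and highest were 7.02, 7.76 and 8.93. The 5 arrays of GpatHF-HF read 7.76, 7.40, 6.69, 7.07 and 8.08. Within each line the ranges on chow and on HFD did not overlap, although the lowest chow-line female on chow (8.95) and the highest chow-line female on HFD (8.93) nearly met. As intensities the group means were 682 ± 219 (SD, n = 7) in GpatCD-CD, 505 ± 209 (SD, n = 6) in GpatHF-CD, 229 ± 133 (SD, n = 6) in GpatCD-HF and 163 ± 66.3 (SD, n = 5) in GpatHF-HF.

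**Figure D1:**
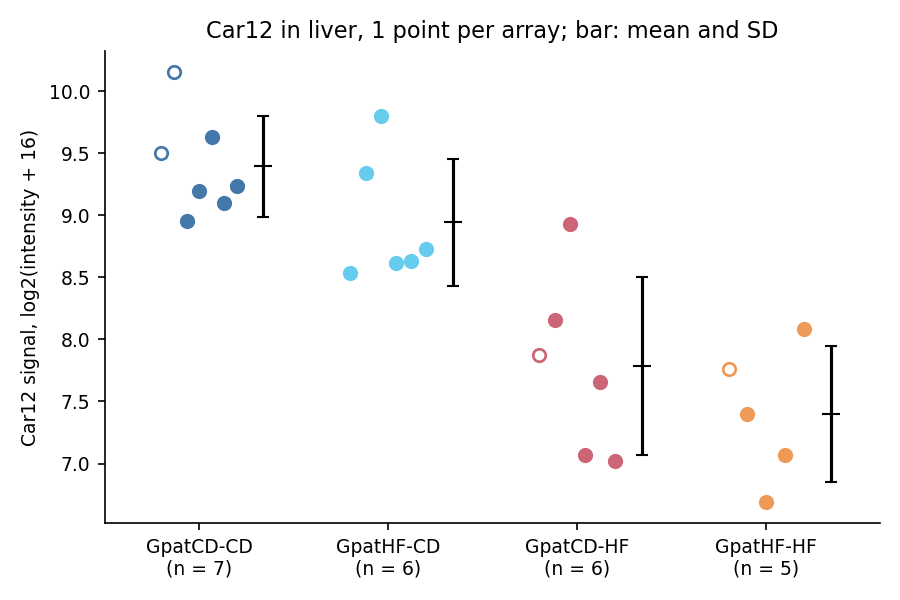
Car12 signal, log2(intensity + 16), in the 4 groups, 1 point per array, with the group mean and SD beside the points; open points are arrays 21, 22, 24 and 25. The means descend from 9.39 in GpatCD-CD through 8.94 in GpatHF-CD and 7.78 in GpatCD-HF to 7.40 in GpatHF-HF.

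The own-diet difference in Car12 (HFD minus chow) was -1.61 ± 0.27 (SE) in the chow line, a signal 3.05-fold lower. In the HFD line it was -1.54 ± 0.30 (SE), 2.91-fold lower. All 6 chow-line females on HFD lay below the mean of their counterparts on chow, as did all 5 of the HFD line. Without arrays 21, 22, 24 and 25 the differences were -1.46 and -1.63. Of the 7 members bright enough to test, the ranges of 1, Car12, were apart and lower on HFD in the chow line, against 0.198% of probe sets, and those of 2, Car12 and Car4, in the HFD line, against 2.71%. These counts describe the values by which Car12 was picked and carry no further weight.

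By the grandfather's diet Car12 differed less. Its mean was lower in the HFD line on either diet, by a difference of -0.45 ± 0.27 (SE) on chow and -0.38 ± 0.30 (SE) on HFD. Neither difference passed (limma, Benjamini-Hochberg adjusted p = 0.642 and 0.58), and the ranges overlapped. Averaged over the animals' own diets the difference was -0.42 ± 0.20 (SE), with a confidence interval of -0.83 to -0.00125, an unadjusted p of 0.0494 and an adjusted p of 0.453 in limma. On chow 5 of 6 HFD-line females lay below the chow-line mean, and on HFD 4 of 5 did. Without arrays 21, 22, 24 and 25 the averaged difference was -0.37. The own-diet difference was of like size in both lines, with an interaction of 0.07 ± 0.41 (SE) and a limma adjusted p of 0.963, and its interval ran from -0.76 to 0.90. In the order of the 4 means, the first pair (GpatCD-CD and GpatHF-CD) and the last pair (GpatCD-HF and GpatHF-HF) were thus not told apart by the test. The middle pair, GpatHF-CD and GpatCD-HF, overlapped through the single GpatCD-HF array at 8.93.

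By the grandfather's diet no member passed the threshold. Of 7 members tested, 0 passed on chow, on HFD, averaged or in the interaction, where limma called 0% of the 15687 probe sets at an adjusted p of 0.05. At an unadjusted p of 0.05, 2 members (Car14 and Car3) passed on chow, where 9.15% of probe sets did. One member, Car2, passed on HFD, where 11% did, and 2 (Car12 and Car14) passed in the average, also where 11% did. In the interaction 3 members (Car2, Car3 and Car4) passed, where 9.71% did.

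**Figure D2:**
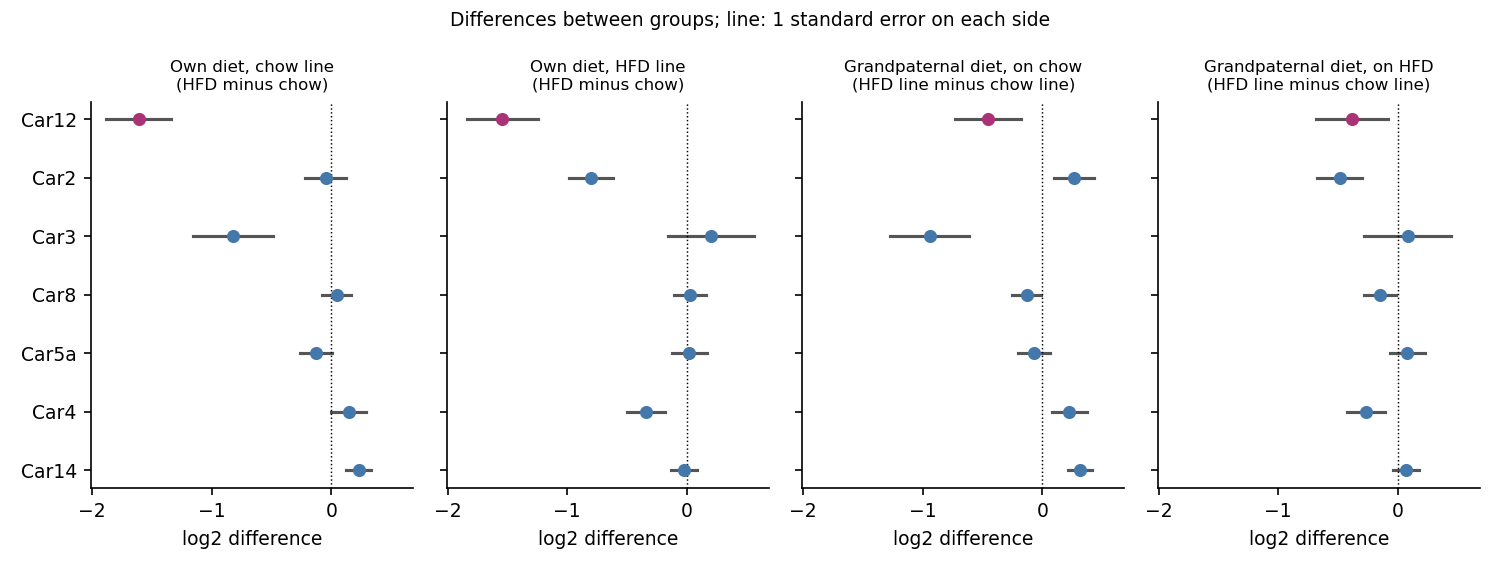
Differences on the log2(intensity + 16) scale for the 7 members tested, by own diet in each line (HFD minus chow) and by the grandfather's diet on each own diet (HFD line minus chow line); points are the fitted differences and lines reach 1 standard error to each side. Car12 lies at -1.61 and -1.54 in the own-diet panels, while Car3 at -0.94 is the farthest from 0 in the grandfather's-diet panels.

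The other membrane-bound enzymes with an extracellular catalytic domain are Car14 and Car4. Car14, a transmembrane enzyme of hepatocytes, had its lowest values in GpatCD-CD, where the lowest, median and highest were 8.98, 9.53 and 9.73. In GpatHF-CD they were 9.60, 9.77 and 9.83, and in GpatCD-HF 9.49, 9.63 and 9.87. The GpatHF-HF arrays read 9.62, 9.80, 9.64, 9.68 and 9.92. All 6 HFD-line females on chow were above the chow-line mean, and the 2 ranges overlapped. The grandfather's-diet difference was 0.32 ± 0.10 (SE) on chow, with an unadjusted p of 0.00443 and an adjusted p of 0.448 in limma. On HFD it was 0.07 ± 0.11 (SE), adjusted p = 0.794 in limma, and averaged 0.19 ± 0.08 (SE), adjusted p = 0.374 in limma. Without arrays 21, 22, 24 and 25 the difference on chow was 0.26. The own-diet difference was 0.23 ± 0.10 (SE) in the chow line and -0.02 ± 0.11 (SE) in the HFD line, and the interaction was -0.25 ± 0.15 (SE), adjusted p = 0.587 in limma.

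Car4, which is held to the outer membrane by a lipid anchor, differed between the arrays that stood apart and the rest. It read 9.91 to 10.27 in arrays 21, 22, 24 and 25 and 10.50 to 11.05 in the other 20, so the ranges did not overlap. Those 4 arrays were picked by a component computed over the tested probe sets, Car4 among them. The share of all probe sets that separate them in this way was not counted. The group means were 10.58 ± 0.36 (SD, n = 7) in GpatCD-CD, 10.81 ± 0.08 (SD, n = 6) in GpatHF-CD, 10.73 ± 0.38 (SD, n = 6) in GpatCD-HF and 10.46 ± 0.15 (SD, n = 5) in GpatHF-HF. The 5 GpatHF-HF arrays read 10.19, 10.51, 10.57, 10.50 and 10.54, all below the lowest GpatHF-CD array at 10.68, and the own-diet difference in that line was -0.34 ± 0.16 (SE). In the chow line it was 0.15 ± 0.15 (SE). By the grandfather's diet the difference was 0.22 ± 0.15 (SE) on chow and -0.27 ± 0.16 (SE) on HFD, with limma adjusted p = 0.661 and 0.496. The interaction was -0.49 ± 0.22 (SE), adjusted p = 0.461 in limma. Without those 4 arrays the difference on chow was 0.03, that on HFD was -0.34 and the interaction was -0.37. The second Car4 probe set was dim, with group means of 6.04 to 6.12, and its interaction was -0.03 ± 0.13 (SE), so the 2 probe sets gave different values.

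Among the cytosolic enzymes, Car2 is the fast, widely expressed form. Its lowest, median and highest values were 8.80, 9.30 and 9.89 in GpatCD-CD, 9.14, 9.56 and 9.96 in GpatHF-CD, and 8.77, 9.30 and 9.68 in GpatCD-HF. The GpatHF-HF arrays read 8.44, 8.76, 8.83, 8.63 and 9.22 and had the lowest mean, 8.77 ± 0.29 (SD, n = 5), with ranges that overlapped every other group. The own-diet difference was -0.80 ± 0.18 (SE) in the HFD line, 1.74-fold lower, and -0.05 ± 0.17 (SE) in the chow line. The grandfather's-diet difference was 0.27 ± 0.17 (SE) on chow, adjusted p = 0.654 in limma. On HFD it was -0.49 ± 0.18 (SE), with an unadjusted p of 0.0142 and an adjusted p of 0.434 in limma, and all 5 HFD-line females lay below the chow-line mean. The interaction was -0.75 ± 0.25 (SE), with an unadjusted p of 0.00593 and an adjusted p of 0.331 in limma, so a difference between the lines in their own-diet response was not shown for Car2. Without arrays 21, 22, 24 and 25 the interaction was -0.56.

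Car3 is a slow cytosolic form abundant in liver, fat and muscle, and its arrays were widely spread, with an SD of 0.43 to 0.90 within groups. In GpatCD-CD the lowest, median and highest were 10.90, 11.46 and 12.11, and in GpatHF-CD 9.79, 10.57 and 10.96. In GpatCD-HF they were 8.90, 10.89 and 11.45, and the GpatHF-HF arrays read 11.39, 10.38, 9.45, 10.91 and 11.59. The chow-fed groups overlapped only between 10.90 and 10.96, and all 6 GpatHF-CD females lay below the GpatCD-CD mean. The grandfather's-diet difference on chow was -0.94 ± 0.33 (SE), 1.92-fold lower, with an unadjusted p of 0.00884 and an adjusted p of 0.482 in limma. On HFD it was 0.08 ± 0.36 (SE), adjusted p = 0.927 in limma, and the interaction was 1.02 ± 0.49 (SE), adjusted p = 0.508 in limma. Its own-diet difference was -0.82 ± 0.33 (SE) in the chow line and 0.20 ± 0.36 (SE) in the HFD line. Single arrays weighed on these values: the chow-line difference was -0.47 without array 34. The HFD-line difference ran from -0.00908 without array 47 to 0.53 without array 45, and the interaction was 0.67 without array 34. Without arrays 21, 22, 24 and 25 the grandfather's-diet difference on chow was -0.93. The summed intensity of 6 muscle markers was 547 to 667 in GpatCD-CD and 516 to 647 in GpatHF-CD.

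Car1, the abundant form of red cells, was near the floor. Its intensities were 17.1 to 33.9 over the 24 arrays, its group means lay between 5.32 and 5.34, and it was brighter than 13.5% of probe sets, so it was left out of the test with the dimmest 25%. The erythroid list had 0 of 8 genes past the threshold by own diet averaged over the lines, where 1.99% of all probe sets passed. A count of 0 in a list this short is near that share. Its summed intensities were 1684 to 4895 in GpatCD-CD, 1900 to 5240 in GpatHF-CD, 2575 to 8220 in GpatCD-HF and 3240 to 4821 in GpatHF-HF. In GRCr8, Car2, Car3 and Car1 follow in that order along chromosome 2. Car2 had its highest group mean, 9.57, in GpatHF-CD, and Car3 its lowest, 10.54, in that same group.

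**Figure D3:**
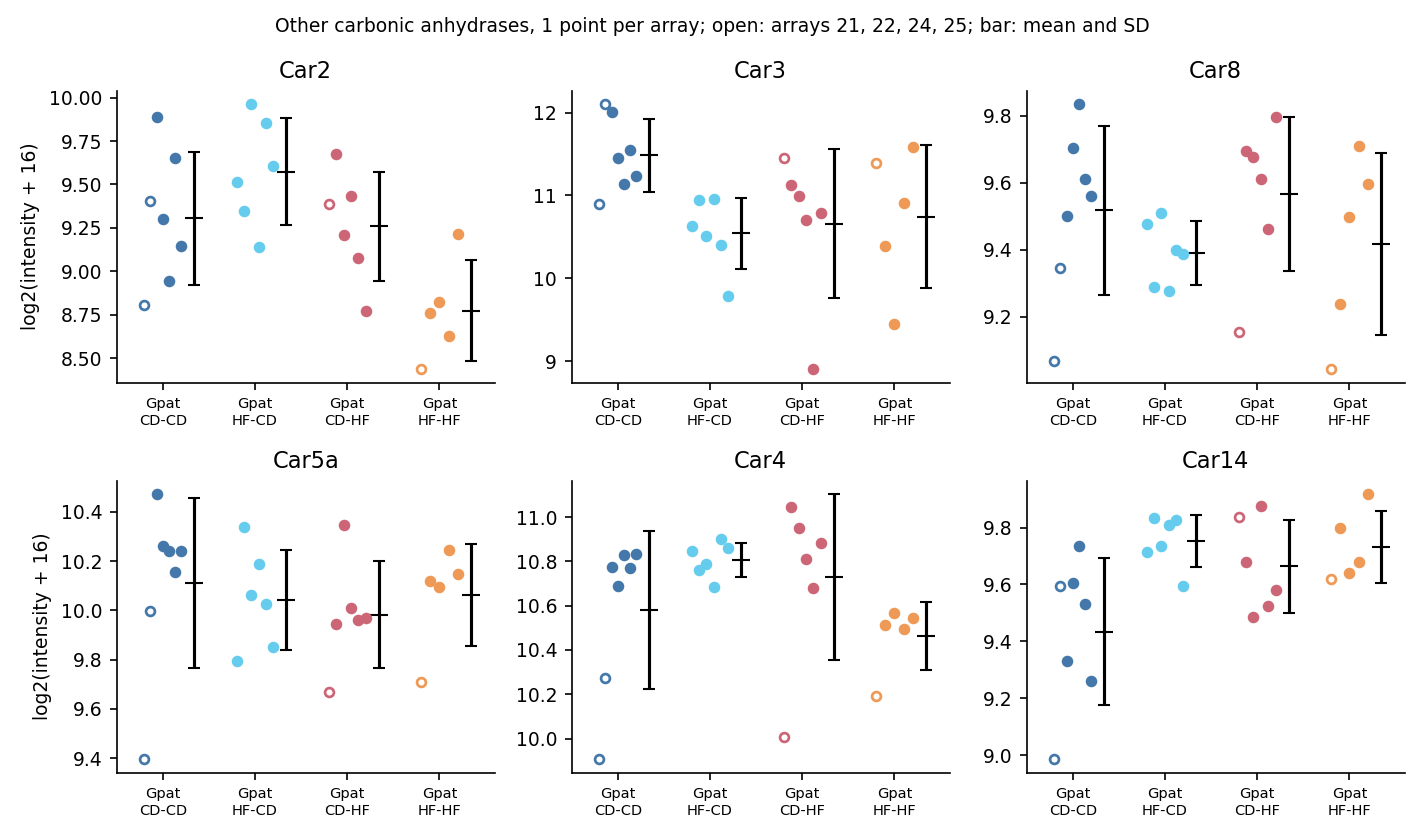
Signals of Car2, Car3, Car8, Car5a, Car4 and Car14, log2(intensity + 16), 1 point per array in each of the 4 groups with the mean and SD; open points are arrays 21, 22, 24 and 25. The open points of Car4 lie at 9.91 to 10.27, below all filled ones, and the Car2 points of GpatHF-HF have the lowest mean, 8.77.

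The mitochondrial Car5a, which supplies bicarbonate to pyruvate carboxylase and carbamoyl phosphate synthetase, had the group means closest together among the 7 members tested. Car5a means were 10.11 ± 0.35 (SD, n = 7) in GpatCD-CD, 10.04 ± 0.20 (SD, n = 6) in GpatHF-CD, 9.98 ± 0.22 (SD, n = 6) in GpatCD-HF and 10.06 ± 0.21 (SD, n = 5) in GpatHF-HF. Its grandfather's-diet difference was -0.07 ± 0.14 (SE) on chow and 0.08 ± 0.15 (SE) on HFD, adjusted p = 0.908 and 0.817 in limma. Averaged over diets, the interval of that difference was -0.20 to 0.21. Its own-diet difference was -0.13 ± 0.14 (SE) in the chow line and 0.02 ± 0.15 (SE) in the HFD line. When arrays 21, 22, 24 and 25 were left out, the Car5a grandfather's-diet difference was -0.23 on chow and 0.11 on HFD. Its own-diet difference was then -0.23 in the chow line and 0.11 in the HFD line. Car8, a member without catalytic activity that binds the inositol trisphosphate receptor, had means of 9.52 ± 0.25 (SD, n = 7), 9.39 ± 0.10 (SD, n = 6), 9.57 ± 0.23 (SD, n = 6) and 9.42 ± 0.27 (SD, n = 5) in the same order of groups. Its averaged grandfather's-diet difference was -0.14 ± 0.09 (SE), with an interval of -0.32 to 0.05 and an adjusted p of 0.581 in limma. Its own-diet differences were 0.05 ± 0.12 (SE) in the chow line and 0.03 ± 0.13 (SE) in the HFD line. For Car8 without those 4 arrays the grandfather's-diet difference was -0.25 on chow, -0.14 on HFD and -0.20 averaged.

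The array also named 8 other carbonic anhydrases, of which 5 were bright enough to test, Car5b, Car6, Car7, Car9 and Car11, and Car13, Car13l1 and Car15 were not. None of the 5 passed in any comparison, own diet included. Of all 15687 probe sets, limma called 50 by own diet in the chow line, 118 in the HFD line and 312 averaged. By the grandfather's diet and in the interaction it called 0, so a count of 0 among 5 is near the share over all probe sets. Car9, a tumour-associated membrane enzyme induced by hypoxia, had an averaged own-diet difference of 0.23 ± 0.09 (SE), adjusted p = 0.248 in limma, with a sign opposite to that of Car12. Car5b, the second mitochondrial form, had its lowest mean in GpatHF-HF, 5.75 ± 0.11 (SD, n = 5), and a grandfather's-diet difference on HFD of -0.34 ± 0.12 (SE), adjusted p = 0.42 in limma. Both Car9 and Car5b were dim, brighter than 37.8% and 32.1% of probe sets. Car6, a secreted form, had means from 7.76 to 8.20.

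Lists of bicarbonate and proton transporters and of enzymes that use bicarbonate gave 0 calls by own diet averaged over the lines. A list of water and gas channels gave 1, where 1.99% of all probe sets passed an adjusted p of 0.05. Of 11 tested bicarbonate and proton transporters, 0 passed, and their median difference was -0.09 against -0.03 over all probe sets. Slc16a1, a lactate and proton cotransporter, had the smallest p, with -0.34 ± 0.13 (SE) and an adjusted p of 0.198 in limma. Of 8 enzymes that use bicarbonate, 0 passed, and Pcca, a subunit of propionyl-CoA carboxylase, stood nearest at -0.25 ± 0.07 (SE), adjusted p = 0.0686 in limma. Of 5 tested water and gas channels, 1 fell, the ammonium transporter Rhbg, with a difference of -0.57 ± 0.13 (SE), adjusted p = 0.0226 in limma. Aqp9, the glycerol channel of hepatocytes, had -0.36 ± 0.12 (SE), adjusted p = 0.126 in limma. In the grandfather's-diet comparisons and the interaction 0 genes of these 3 lists passed, where 0% of all probe sets did. Pccb, the other subunit of propionyl-CoA carboxylase, had an interaction of -0.44 ± 0.12 (SE), adjusted p = 0.226 in limma.

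Lists for the regulators that Car12 is known for gave 0 calls by own diet averaged over the lines, where 1.99% of all probe sets passed. In lists this short a count of 0 is near that share, and the part of these regulators was not tested. Of 13 targets of hypoxia-inducible factors 0 passed, with a median of -0.08, and the collagen hydroxylase P4ha1 had the smallest p, at -0.31 ± 0.10 (SE), adjusted p = 0.109 in limma. Of 4 tested genes of the estrogen list 0 passed, with Esr1, the estrogen receptor, at -0.31 ± 0.10 (SE), adjusted p = 0.108 in limma. All 13 tested cholesterol synthesis genes fell on HFD averaged over the lines, with a median of -1.13. Examples are Sqle, squalene epoxidase, at -2.20 ± 0.24 (SE), adjusted p = 1.97e-06, and Idi1 at -2.05 ± 0.22 (SE), adjusted p = 1.73e-06, both in limma. That list was chosen with its diet response in these arrays known, so its count is no independent evidence. In the grandfather's-diet comparisons and the interaction 0 of the 13 passed, where 0% of all probe sets did, so that count says nothing about this list.

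The genes whose signals were most like that of Car12 included some of that list. Over the 24 arrays, among 13798 genes, Cyp2r1, a vitamin D 25-hydroxylase, had the highest Pearson correlation with Car12, r = 0.88, and Spearman's rho was 0.88. It was followed by the squalene synthase Fdft1 (r = 0.86), the sterol carrier Stard4 (r = 0.85), Idi1 (r = 0.85), Sesn1 (r = 0.84), Hsd17b7 (r = 0.84), the lipid droplet protein Cidea (r = 0.83) and Erg28 (r = 0.83). The 95th percentile of r over all genes was 0.54. All 24 points share the diet groups, and a difference by own diet in both genes adds to r. Within the 13 chow arrays r was 0.68 for Cyp2r1 but -0.06 for Fdft1 and -0.02 for Idi1, and within the 11 HFD arrays it was 0.82, 0.84 and 0.78. Without arrays 35 and 45, where Car12 lay farthest from its median, r for Cyp2r1 was 0.86. These coefficients are descriptions of the arrays and were not tested.

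**Figure D4:**
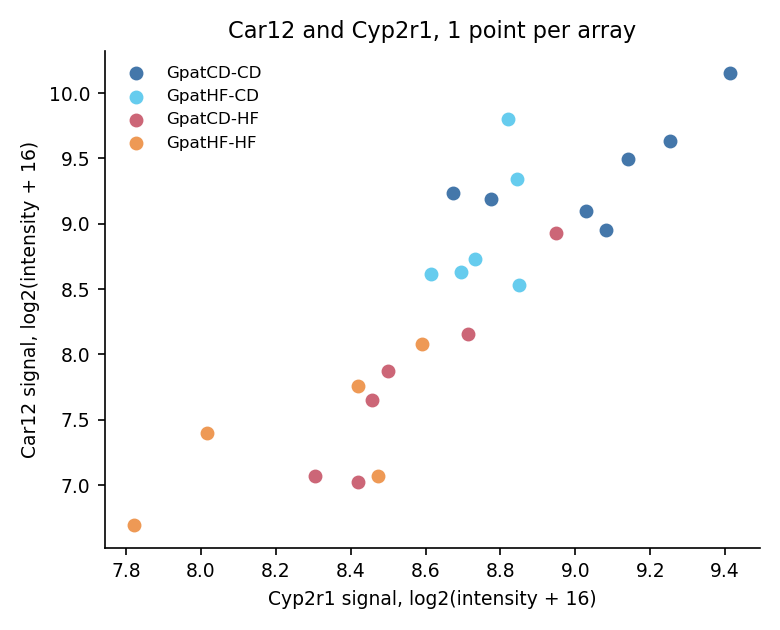
Car12 signal against Cyp2r1 signal, both log2(intensity + 16), 1 point per array, coloured by group. The points run together from the GpatHF-HF arrays at the lower left to the GpatCD-CD arrays at the upper right, with r = 0.88 over the 24 arrays.

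Cyp2r1 had means of 9.05 ± 0.26 (SD, n = 7) in GpatCD-CD, 8.76 ± 0.10 (SD, n = 6) in GpatHF-CD, 8.56 ± 0.23 (SD, n = 6) in GpatCD-HF and 8.27 ± 0.33 (SD, n = 5) in GpatHF-HF, the same order of groups as Car12. It was picked by its correlation with Car12 over these same arrays, so the shared order is no separate evidence of likeness. When each array was taken as its deviation from its own group's mean, other genes came first. Fis1, a mitochondrial fission factor, had r = 0.81, Dmd (dystrophin) 0.81, the RNA-binding Mbnl3 0.80 and the nuclear exporter Xpo4 0.78. Mtmr7 (0.77), Lrrc61 (0.77), Ripk1 (0.73) and Gulp1 (0.73) completed the first 8, against a 95th percentile of 0.53, and Cyp2r1 had 0.71. Of the other genes highest over all arrays, Erg28 had 0.56, above that percentile. Fdft1 (0.50), Sesn1 (0.47), Cidea (0.47), Hsd17b7 (0.44), Stard4 (0.41) and Idi1 (0.40) were below it. The most opposite gene, named after its value was seen, was the class I histocompatibility gene RT1-N2 at -0.78. Among the members themselves, r with Car12 within groups was 0.36 for Car3, 0.13 for Car2, 0.05 for Car14, 0.03 for Car5a, -0.13 for Car8 and -0.16 for Car4.

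Some markers of other cell types also differed by own diet averaged over the lines, where limma called 1.99% of all probe sets. Of 11 macrophage markers 3 fell on HFD averaged over the lines, Marco with -1.16 ± 0.16 (SE), Cd5l with -0.70 ± 0.14 (SE) and Vsig4 with -0.55 ± 0.14 (SE), with limma adjusted p of 6.93e-05, 0.00731 and 0.0393. The median difference of the macrophage list was -0.37, against -0.03 over all probe sets and 0.02 for the bile duct, -0.02 for the acinar, -0.06 for the gut and 0.03 for the adipocyte list. The summed intensity of the macrophage markers was 6258 to 10348 in GpatCD-CD, 5093 to 9062 in GpatHF-CD, 3705 to 6621 in GpatCD-HF and 4593 to 7547 in GpatHF-HF. Of 6 bile duct markers 1 fell, Epcam, with -0.55 ± 0.10 (SE), adjusted p = 0.0033 in limma, while the summed list was 557.9 to 715.9, 480.3 to 701.6, 538.3 to 856.2 and 496.3 to 568.3 in the same order. Of 7 tested pancreatic acinar markers 1 fell, Cpa1, with -1.43 ± 0.35 (SE), adjusted p = 0.0263 in limma, with sums of 2423 to 8431, 2825 to 5508, 1709 to 4307 and 525 to 3911. Of 5 gut epithelium markers 1 rose, Fabp2, by 0.98 ± 0.19 (SE), adjusted p = 0.00441 in limma, with sums of 349 to 521, 366 to 635, 574 to 942 and 385 to 838. Of 9 adipocyte markers Fabp4 rose by 0.62 ± 0.16 (SE) and Pparg fell, with -0.63 ± 0.14 (SE), with limma adjusted p of 0.0412 and 0.0158, and sums of 1510 to 2375, 1918 to 2428, 1736 to 2501 and 1818 to 2275. Each sum was taken over all genes of its list on the array, tested or not. These were 7 bile duct, 11 acinar, 6 gut and 10 adipocyte genes. Among the adipocyte genes Cidec alone had a median intensity of 1430. Of 11 hepatocyte and 8 endothelial markers 0 passed, and no gene of these lists was at 0 on any array. The part of these cell types in the Car12 difference was not tested, and in whole liver fewer cells of a type and less RNA per cell cannot be told apart.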

How the data were processed

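The deposited table held linear intensities of 20917 probe sets on each array. The submitters' processing notes name PLIER and Affymetrix Expression Console, without versions or options. Probe sets were named through the platform annotation, 18197 with 1 gene, 960 with several and 1760 with none. Here log2(intensity + 16) was taken without further normalization, since array medians were 97.9 to 128, and the dimmest 25% of probe sets by mean were dropped. For the remaining 15687, limma 3.58.1 (R 4.3.3) fitted 4 group means over all 24 arrays, with trended eBayes and two-sided tests, Benjamini-Hochberg adjusted over all of them with a threshold of 0.05. The number of arrays limits the precision. The members, gene lists and tests were chosen with earlier results of these data known. Named were all carbonic anhydrases, from each list up to 4 genes with the smallest p plus any that passed, and the 8 genes most like Car12 by each measure. The procedure was tested on simulated data. Alternatives covered normalization, filter, offset, variance moderation, array weights, probe sets per gene, the groups fitted and the arrays left out.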

Additional observations from a re-analysis of the deposited data

Results flagged for a closer look

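In GpatCD-HF, array 34 had the lowest Car3 signal, 8.90, far from the others at 10.70 to 11.45. In the same group array 22 had the lowest Car4 signal, 10.01, against 10.68 to 11.05. In GpatHF-HF, array 24 had the lowest Car4 signal, 10.19, against 10.50 to 10.57, and the lowest Car5a signal, 9.71, against 10.10 to 10.24. Each gap to the next array exceeded Dixon's 95% critical value for its group. With 32 probe set and group pairs examined, 4 were found, and chance alone marks about 1 in 20. Arrays 22 and 24 are among the 4 that stood apart on the second principal component.

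For Car4 all 6 HFD-line females on chow lay above the chow-line mean on chow. All 5 HFD-line females on HFD lay below the chow-line mean on HFD. The chow-line mean on chow includes arrays 21 and 25, which read 9.91 and 10.27, the lowest of their group. The difference between those 2 effects was -0.49, and its interaction test in limma gave an adjusted p of 0.461. Without arrays 21, 22, 24 and 25 the difference on chow was 0.03, that on HFD was -0.34 and the interaction was -0.37.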

How the results depend on the processing

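With 24 arrays, adjusted p-values of grandpaternal effects on the members stayed far from the threshold. The number of members past it was 0 in the 4 grandpaternal and interaction comparisons under every alternative run, each array left out included, and Car12 was lower on HFD in both lines under all of them, by -1.84 to -1.36. Over all probe sets, 2 passed for the averaged grandpaternal diet when arrays 21, 22, 24 and 25 were left out or fitted as a block, and none of them was a member.

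Small differences that passed no test changed sign. The Car12 interaction was -0.0670 with those arrays as a block and -0.175 without them, and -0.100 to 0.299 with 1 array left out. The Car8 interaction was 0.127 with the block, 0.0244 with arrays centred, 0.129 with quantile normalization and 0.116 without the 4 arrays, and -0.103 to 0.0738 with 1 array left out. The averaged grandpaternal difference of Car5a was -0.0125 with array weights, -0.0549 with the block and -0.0631 without the 4 arrays, and -0.0527 to 0.0512 with 1 left out. That of Car4 was 0.0415 centred, 0.0483 with quantile normalization and -0.0931 to 0.0132 with 1 left out. The Car3 difference on HFD was -0.0569 with array weights and -0.269 to 0.407 with 1 left out. The cause was not tested.

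The count of probe sets past the threshold by own diet averaged over the lines was 312, but 581 with array weights. No paired analysis was possible because no animal number occurs in more than 1 group.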
